A study of Ciona robusta with 3 samples.

Results

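Zswim4-KY.Chr8.601, Pcdh18-KY.Chr9.961, Adgrl3-KY.Chr8.562, Sik2-KY.Chr10.106, Zbtb46-KY.Chr7.932 and Lpin2-KY.Chr2.1260 are 6 of the 17822 genes counted in single cells of Ciona robusta embryos. They were chosen by their fitted difference in UMI counts between cardiopharyngeal progenitors under CRISPR mutagenesis of Foxf and control progenitors, in which all 6 were higher under Foxf CRISPR, so their levels in that contrast are given as a description, without a test. Each name joins the symbol and the KY2019 gene model that the files pair: KY2019:KY.Chr8.601 (Zswim4), KY2019:KY.Chr9.961 (Pcdh18), KY2019:KY.Chr8.562 (Adgrl3), KY2019:KY.Chr10.106 (Sik2), KY2019:KY.Chr7.932 (Zbtb46) and KY2019:KY.Chr2.1260 (Lpin2). The models' coordinates were not used here.

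Ciona is a tunicate, a marine invertebrate related to vertebrates. In its embryo the B7.5 blastomeres give rise to founder cells, each of which divides into an anterior tail muscle cell (ATM) and a trunk ventral cell (TVC). The TVC is a multipotent progenitor of heart and pharyngeal muscle. The TVC migrates into the trunk before it divides, and FGF-MAPK signalling switches on Foxf in it soon after birth. Foxf encodes a forkhead transcription factor known in Ciona for opening chromatin at cardiopharyngeal enhancers and for acting upstream of the cardiac regulators Gata4/5/6, Nkx2-5 and Hand.

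B7.5-lineage cells that carried a Mesp>GFP reporter were sorted, fixed in methanol and profiled by droplet-based 3' single-cell RNA sequencing, in which each captured molecule is counted once by its unique molecular identifier (UMI). Embryos of different conditions were pooled into 1 library and told apart afterwards by pairs of expressed barcode transgenes. Each of 2 CRISPR libraries, collected at 12 hours post-fertilization (hpf), held 4 conditions: Foxf CRISPR, Gata4/5/6 CRISPR, Foxtun4 CRISPR and a control CRISPR. The study's barcode key reads Tyr for the condition taken here as control and FoxG for the condition taken here as Foxtun4 CRISPR. The other library, the time series, held embryos without CRISPR reagents collected at 10 time points from 5 to 14 hpf. In all 4 CRISPR conditions Cas9 was expressed from a Mesp enhancer, which restricts it to the B7.5 lineage, and the plasmids were electroporated, so that cells of 1 condition can carry different edits or none.

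CRISPR library 1 held 231 cells, of which 161 were assigned to a condition, and library 2 held 638 cells, of which 463 were assigned. The time series held 2569 cells, of which 1353 were assigned to a time point. Clusters of cells were named TVC-like or ATM-like from 10 marker genes of each class. UMIs were then summed over the cells of 1 condition, class and library, giving 16 sums of 6 to 73 cells and of 91315 to 2526415 UMIs, and a level is given as CPM, the UMIs of a gene per 1000000 UMIs of its sum. The Foxf CRISPR sums of TVC-like cells rested on 13 and 46 cells in libraries 1 and 2, and the control sums on 33 and 67 cells. In TVC-like cells the Foxf transcript (Foxf1-KY.Chr3.1005) was at 60.0 and 143.6 CPM under Foxf CRISPR, against 572.7 and 447.4 CPM in control. The Gata4/5/6 transcript (Gata5-KY.Chr6.625) was at 65.5 and 54.5 CPM under Foxf CRISPR, against 240.6 and 234.8 CPM in control. The Foxtun4 transcript (Foxl1-KY.Chr5.382) was at 109.5 and 71.2 CPM in the condition taken as Foxtun4 CRISPR, against 337.2 and 280.6 CPM in control. The 2 CRISPR libraries shared 7 cell barcodes, and no library 2 copy of these entered any sum.

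The genes fall into 3 kinds by the vertebrate proteins they are named after. Pcdh18 and Adgrl3 name cell surface proteins: in vertebrates PCDH18 is a protocadherin of the cadherin superfamily of adhesion molecules, and ADGRL3, or latrophilin 3, is an adhesion G protein-coupled receptor that binds teneurins and FLRT proteins at synapses. Sik2 and Lpin2 name enzymes: in mammals SIK2 is a salt-inducible kinase related to AMPK that phosphorylates the CREB coactivators of the CRTC family, and lipin 2 is a phosphatidate phosphatase that makes diacylglycerol. Zswim4 and Zbtb46 name zinc finger proteins: ZSWIM4 carries a SWIM-type zinc finger, and ZBTB46 is a BTB zinc finger transcription factor known in the mouse as a marker of classical dendritic cells.

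Under Foxf CRISPR, all 6 transcripts stood above the control in TVC-like cells of both libraries, which their choice by this contrast favours. Of the genes named after surface proteins, Pcdh18-KY.Chr9.961 was at 283.8 and 315.7 CPM under Foxf CRISPR in libraries 1 and 2, against 84.7 and 60.9 CPM in control. Adgrl3-KY.Chr8.562 was at 300.2 and 388.7 CPM under Foxf CRISPR, against 83.0 and 97.2 CPM in control. For both genes the lower Foxf CRISPR library was more than 3 times the higher control library, a gap that the choice of the genes also favours. The fitted log2 difference was 2.133 ± 0.23 (SE, n = 2 libraries in each condition) for Pcdh18-KY.Chr9.961 and 1.99 ± 0.25 for Adgrl3-KY.Chr8.562, a 4.38-fold and a 3.97-fold higher level.

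Zswim4-KY.Chr8.601 had the greatest difference of the 6 genes. It was at 513.1 and 491.5 CPM under Foxf CRISPR, from 94 and 397 UMIs, against 116.9 and 60.1 CPM in control. The other zinc finger gene, Zbtb46-KY.Chr7.932, was at 136.5 and 212.9 CPM under Foxf CRISPR, against 69.5 and 56.1 CPM in control. The control libraries were the less even pair for Zswim4, while the Foxf CRISPR libraries were for Zbtb46. The fitted log2 difference was 2.61 ± 0.33 for Zswim4-KY.Chr8.601, or 6.09-fold, and 1.62 ± 0.28 for Zbtb46-KY.Chr7.932, or 3.08-fold.

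The genes named after enzymes had the smallest differences of the 6. Sik2-KY.Chr10.106 was at 223.8 and 226.5 CPM under Foxf CRISPR, against 111.8 and 88.5 CPM in control. Lpin2-KY.Chr2.1260 was at 103.7 and 132.5 CPM under Foxf CRISPR, the library 1 value resting on 19 UMIs, against 54.2 and 60.9 CPM in control. Both genes were near a doubling. The fitted log2 difference was 1.228 ± 0.22 for Sik2-KY.Chr10.106, or 2.34-fold, and 1.11 ± 0.22 for Lpin2-KY.Chr2.1260, or 2.16-fold.

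Ranked from the highest fitted difference among the 6504 genes that passed the filter on low counts, Zswim4 was at place 6, Pcdh18 at 16, Adgrl3 at 20, Zbtb46 at 39, Sik2 at 77 and Lpin2 at 99. By the call rule used throughout, an adjusted p under 0.05 with a log2 difference past 0.5, 51 of the 6504 genes (0.784%) were higher under Foxf CRISPR and 138 (2.12%) were lower. All 6 genes were among the 51, which the way they were chosen fixes, and nothing is read from it. The median log2 difference of all genes was 0.01.

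**Figure D1:**
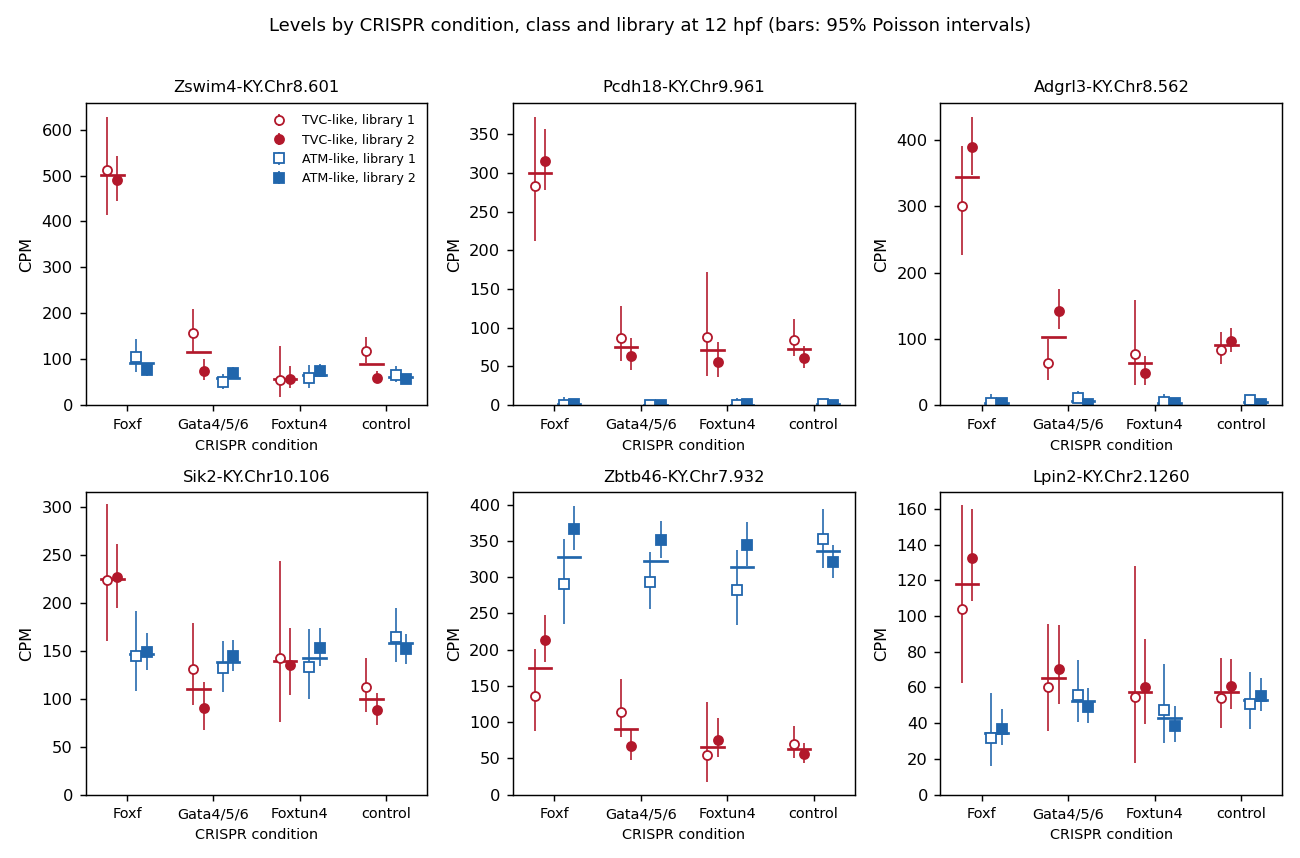
Level of each of the 6 genes (vertical axis, CPM) by CRISPR condition (horizontal axis) at 12 hpf. Circles are sums of TVC-like cells and squares sums of ATM-like cells, open for library 1 and filled for library 2, with exact 95% Poisson intervals as bars and the mean of the libraries as a short line. For every gene the Foxf CRISPR circles lie above all other circles, while for Zbtb46-KY.Chr7.932 they stay below the squares.

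The same libraries held progenitors in which a different transcription factor gene was targeted, and their levels are given beside control. Zswim4-KY.Chr8.601 was at 157.8 and 75.4 CPM in TVC-like cells under Gata4/5/6 CRISPR and at 54.8 and 57.8 CPM under Foxtun4 CRISPR, beside the 116.9 and 60.1 CPM in control. Pcdh18-KY.Chr9.961 was at 87.3 and 63.9 CPM under Gata4/5/6 CRISPR and at 87.6 and 55.6 CPM under Foxtun4 CRISPR, beside 84.7 and 60.9 CPM in control. Adgrl3-KY.Chr8.562 was at 63.8 and 142.5 CPM under Gata4/5/6 CRISPR and at 76.7 and 48.9 CPM under Foxtun4 CRISPR, beside 83.0 and 97.2 CPM in control. Both Foxtun4 CRISPR libraries lay below both control libraries for Zswim4 and Adgrl3, and the other ranges overlapped control.

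Sik2-KY.Chr10.106 was at 130.9 and 90.1 CPM under Gata4/5/6 CRISPR and at 142.4 and 135.7 CPM under Foxtun4 CRISPR, beside 111.8 and 88.5 CPM in control. Zbtb46-KY.Chr7.932 was at 114.1 and 67.2 CPM under Gata4/5/6 CRISPR and at 54.8 and 75.6 CPM under Foxtun4 CRISPR, beside 69.5 and 56.1 CPM in control. Lpin2-KY.Chr2.1260 was at 60.4 and 70.5 CPM under Gata4/5/6 CRISPR and at 54.8 and 60.1 CPM under Foxtun4 CRISPR, beside 54.2 and 60.9 CPM in control. Sik2 under Foxtun4 CRISPR was the single case in which both libraries lay clearly above both control libraries, and there too both Foxf CRISPR sums were higher.

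Under Gata4/5/6 CRISPR, 0 of the 6 genes passed the call in TVC-like cells by edgeR's quasi-likelihood test. The background was 0% of 6504 genes higher and 0.0615% lower, with 156 genes higher and 112 lower at an unadjusted p under 0.05, and DESeq2 called 0 higher and 6 lower. The fitted log2 differences ran from 0.12 ± 0.27 for Pcdh18-KY.Chr9.961 to 0.56 ± 0.31 for Zbtb46-KY.Chr7.932, all with an adjusted p of 0.9998. Under Foxtun4 CRISPR again 0 of the 6 passed, beside 0% of genes higher and 0.0154% lower (79 and 108 genes at an unadjusted p under 0.05, and 0 and 1 by DESeq2). There the log2 differences ran from -0.72 ± 0.36 for Adgrl3-KY.Chr8.562 to 0.49 ± 0.26 for Sik2-KY.Chr10.106, with an adjusted p of 0.9994. Both comparisons use the control sums that also entered the choice of the genes, and the Foxtun4 CRISPR sum of library 1 held 6 cells.

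Transcripts of tail muscle were present in every TVC-like sum. The 10 ATM markers, which include Smyd1, troponin genes, Ttn, Casq2 and Ckm, summed to 22041 and 18268 CPM under Foxf CRISPR, to 30542 and 16662 CPM under Gata4/5/6 CRISPR, to 12342 and 17545 CPM under Foxtun4 CRISPR and to 16971 and 16013 CPM in control, against 64717 to 71594 CPM in ATM-like cells. At least 9 of the 10 markers had a UMI in each of these sums. Clusters were named with these markers, so the gap between the classes is set by the naming. Their summed level was highest in the library 1 sum of Gata4/5/6 CRISPR, which was also the highest sum outside Foxf CRISPR for Zswim4-KY.Chr8.601 and Zbtb46-KY.Chr7.932. The part of muscle RNA in these levels was not tested for Zswim4, Zbtb46, Sik2 and Lpin2, which ATM-like cells express. For Pcdh18-KY.Chr9.961 and Adgrl3-KY.Chr8.562 the levels in ATM-like cells were at most 1.9 and 10.4 CPM, far under their levels in TVC-like cells.

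Other genes of the progenitor program were measured in the same Foxf CRISPR sums, from lists that name no gene of the 6. The 10 TVC markers summed to 12718 and 11868 CPM in TVC-like cells under Foxf CRISPR, against 17816 and 18199 CPM in control TVC-like cells, and to between 228 and 348 CPM in ATM-like cells of all conditions. Clusters were named with these markers, so the gap to ATM-like cells is set by the naming. The TVC-like cells of every condition were likewise selected for them. Of these 10 markers, 4 passed the call as lower and 0 as higher, with a median log2 difference of -0.58, beside the 2.12% of all genes that were lower. Nkx2-5-KY.Chr8.909, a homeobox regulator of heart development, was at 403.9 and 340.4 CPM under Foxf CRISPR, against 784.5 and 698.0 CPM in control. Hand2-KY.Chr1.2070, a bHLH regulator, was at 3805 and 3752 CPM under Foxf CRISPR, against 2682 and 2431 CPM in control, so not every gene linked to the cardiac program was lower. The other Hand gene, Hand1-KY.Chr14.359, went the other way, with a mean of 44.9 CPM under Foxf CRISPR, against 98.3 CPM in control. Its fitted log2 difference was -1.37 ± 0.39, and neither Hand gene passed the call. The 6 tissue markers of epidermis, nervous system and mesenchyme together stayed between 57.8 and 141 CPM over all TVC-like sums. The nervous system marker Celf3 had the highest mean, 88.2 CPM under Foxf CRISPR and 71.4 CPM in control. The mesenchyme markers Akr1c1 and Twist1 had means of 0.62 and 0 CPM under Foxf CRISPR, against 11.1 and 22.0 CPM (SD 28.8 for Twist1) in control. Bhlha15 and C6 were at 0 and 0.62 CPM, against 0.85 and 0 CPM. The part of mesenchyme RNA in these sums was not tested.

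The 59 TVC-like cells of Foxf CRISPR were spread over several clusters, and 31 of them, 7 in library 1 and 24 in library 2, formed a cluster that held no cell of another condition. The 6 genes and the targeted genes were left out of the genes used for clustering. Pooled over the libraries, Zswim4-KY.Chr8.601 was at 772 CPM (95% Poisson interval 697 to 852) in this cluster and at 205 CPM (167 to 249) in the 28 other Foxf CRISPR cells, against 78.2 CPM in control. Pcdh18-KY.Chr9.961 was at 423 CPM in the cluster and 190 CPM in the other cells, against 68.5 CPM in control. Adgrl3-KY.Chr8.562 was at 526 CPM in the cluster and 211 CPM in the other cells, against 92.7 CPM in control. For these genes the cells of the cluster were highest and the remaining Foxf CRISPR cells intermediate. The genes were chosen by the contrast of these same cells with control, and the share of all genes with this order was not measured.

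The order was the same for the other genes. Sik2-KY.Chr10.106 was at 282 CPM in the cluster and 168 CPM in the other Foxf CRISPR cells, against 95.9 CPM in control, and Zbtb46-KY.Chr7.932 was at 278 and 116 CPM, against 60.4 CPM. Lpin2-KY.Chr2.1260 was at 140 CPM (109 to 176) in the cluster and 114 CPM (85.7 to 148) in the other cells, against 58.8 CPM in control, so that its 2 Foxf CRISPR intervals overlapped. The libraries differed for Lpin2: in library 1 it was at 159 CPM in the cluster and 59.0 CPM in the other cells, from 13 and 6 UMIs, against 54.2 CPM in control, and in library 2 at 136 and 128 CPM, against 60.9 CPM in control. Without the cluster the ratio of Foxf CRISPR to control CPM was between 1.75 for Sik2 and 2.78 for Pcdh18, whereas with all cells it was between 2.16 for Lpin2 and 6.34 for Zswim4. The Foxf transcript was at 90.6 CPM in the cluster and 168 CPM in the other Foxf CRISPR cells, and the Gata4/5/6 transcript at 9.85 and 106 CPM. Which cells carried an edit was not measured.

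**Figure D2:**
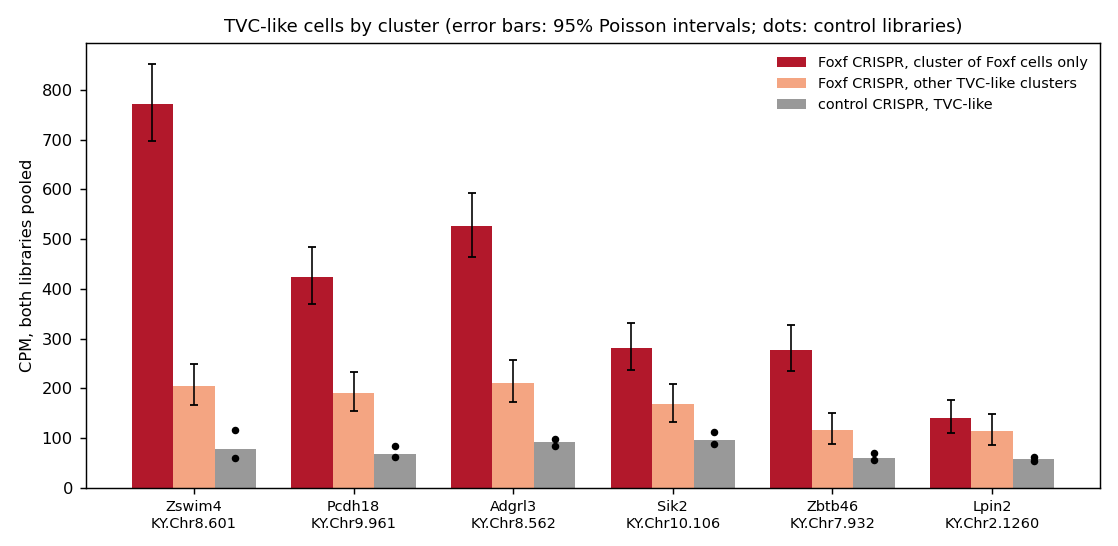
Pooled level (vertical axis, CPM, both libraries) of each of the 6 genes in TVC-like cells: 31 Foxf CRISPR cells of the cluster without other conditions (dark red), 28 Foxf CRISPR cells of other clusters (light red) and 100 control cells (grey, with dots for the libraries). Error bars are exact 95% Poisson intervals, which cover counting error only. The dark bars run from 140 CPM for Lpin2-KY.Chr2.1260 to 772 CPM for Zswim4-KY.Chr8.601, and the light bars lie between the dark and the grey ones for each gene.

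In ATM-like cells, which the choice of the genes did not use, none of the genes that could be tested passed the call under Foxf CRISPR. Pcdh18 and Adgrl3 could not be tested there. Zswim4-KY.Chr8.601 was at 104.4 and 77.2 CPM under Foxf CRISPR, against 66.4 and 55.8 CPM in control. Sik2-KY.Chr10.106 was at 145.0 and 148.5 CPM under Foxf CRISPR, against 164.8 and 151.6 CPM in control. Zbtb46-KY.Chr7.932 was at 289.9 and 366.4 CPM under Foxf CRISPR, against 352.1 and 321.0 CPM in control. Zswim4 was higher in both Foxf CRISPR libraries, Sik2 lower in both by a small margin, and Zbtb46 overlapped.

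Lpin2-KY.Chr2.1260 was at 31.9 and 37.0 CPM in ATM-like cells under Foxf CRISPR, against 51.0 and 55.4 CPM in control. Both Foxf CRISPR libraries were thus lower, the opposite of its direction in TVC-like cells, and the fitted log2 difference of -0.71 ± 0.24 had an unadjusted p of 0.0085 and an adjusted p of 0.616 by edgeR. The log2 difference was 0.38 ± 0.23 for Zswim4 (adjusted p = 0.929), -0.23 ± 0.17 for Sik2 (adjusted p = 0.971) and -0.14 ± 0.17 for Zbtb46 (adjusted p = 0.983). Over all genes, 0 of 5821 passed in either direction (0%), with 123 higher and 217 lower at an unadjusted p under 0.05, and DESeq2 also called 0. The Foxf CRISPR sum of library 1 held 10 ATM-like cells.

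Pcdh18-KY.Chr9.961 and Adgrl3-KY.Chr8.562 had too few UMIs in ATM-like cells to be tested. Pcdh18 had 0 and 3 UMIs under Foxf CRISPR, against 1 and 1 UMI in control. Adgrl3 was at 2.9 and 3.2 CPM under Foxf CRISPR, against 7.1 and 2.0 CPM in control. Neither gene was therefore detectably higher in muscle cells under Foxf CRISPR at this depth, and the pooled ratio of Foxf CRISPR to control was 2.68 for Pcdh18 (95% interval 0.307 to 32.1) and 0.974 for Adgrl3 (0.296 to 2.87).

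Progenitor and muscle cells were next compared within Gata4/5/6 and Foxtun4 CRISPR, whose sums did not enter the choice of the genes. Between these classes Pcdh18-KY.Chr9.961 was almost confined to progenitors, at 87.3, 63.9, 87.6 and 55.6 CPM in the TVC-like sums, against 0, 0, 0 and 1.3 CPM in the ATM-like sums. With 98 UMIs against 2, its pooled CPM was 162-fold higher in TVC-like cells (95% conditional binomial interval 43.6 to 1354). Adgrl3-KY.Chr8.562 was at 63.8, 142.5, 76.7 and 48.9 CPM in TVC-like cells, against 10.4, 2.4, 4.7 and 2.7 CPM in ATM-like cells, and its groups did not overlap. The fitted log2 difference for Adgrl3 was 2.93 ± 0.42 (adjusted p = 3.3e-06, edgeR) and became 4.30 when libraries were scaled by total UMIs only.

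Zbtb46-KY.Chr7.932 had the opposite distribution. It was at 114.1, 67.2, 54.8 and 75.6 CPM in TVC-like cells, against 293.3, 351.3, 282.0 and 344.7 CPM in ATM-like cells, and every muscle sum was more than 2 times every progenitor sum. Its log2 difference was -3.41 ± 0.20 (adjusted p = 3.3e-12) with edgeR's TMM scaling and -2.03 with total UMIs only. Even the Foxf CRISPR progenitors, at 136.5 and 212.9 CPM, did not reach the 289.9 and 366.4 CPM of the Foxf CRISPR muscle cells. Their place above the control progenitors is one that the choice of the gene favours. The part of muscle RNA in their level was not tested.

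For Sik2, Zswim4 and Lpin2 the comparison of the classes depended on the scaling. Pooled over both conditions, TVC-like cells had 116 CPM of Sik2-KY.Chr10.106, against 144 CPM in ATM-like cells. For Zswim4-KY.Chr8.601 they had 85.6 CPM, against 67.1 CPM in ATM-like cells, and for Lpin2-KY.Chr2.1260 64.2 CPM, against 46.6 CPM in ATM-like cells. With TMM the log2 difference was -1.61 ± 0.16 for Sik2 (adjusted p = 1.1e-08), -1.11 ± 0.26 for Zswim4 (adjusted p = 0.00104) and -0.93 ± 0.18 for Lpin2 (adjusted p = 0.00016), whereas with total UMIs only it was -0.23 for Sik2 (adjusted p = 0.171), 0.27 for Zswim4 (adjusted p = 0.340) and 0.45 for Lpin2 (adjusted p = 0.0364, under the log2 limit of 0.5). TMM moved the median of all 7266 genes to 0.15, against 1.53 with total UMIs only, so all 3 genes were lower in progenitors relative to the median gene, whereas per UMI Zswim4 and Lpin2 were not.

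With TMM, 2 of the 6 genes were thus called higher and 4 lower in TVC-like cells, beside 29.7% and 23.7% of all genes, and with total UMIs only 2 were called higher and 1 lower, beside 75.9% and 8.71%. In control cells, whose TVC-like sums entered the choice and are only described, the log2 differences by TMM were 5.27 for Pcdh18-KY.Chr9.961, 3.32 for Adgrl3-KY.Chr8.562, -0.95 for Zswim4-KY.Chr8.601, -1.30 for Lpin2-KY.Chr2.1260, -2.10 for Sik2-KY.Chr10.106 and -3.87 for Zbtb46-KY.Chr7.932. With total UMIs only, Zswim4 and Lpin2 turned to 0.49 and 0.13. The background in control was 27.2% of genes higher and 21.5% lower with TMM.

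**Figure D3:**
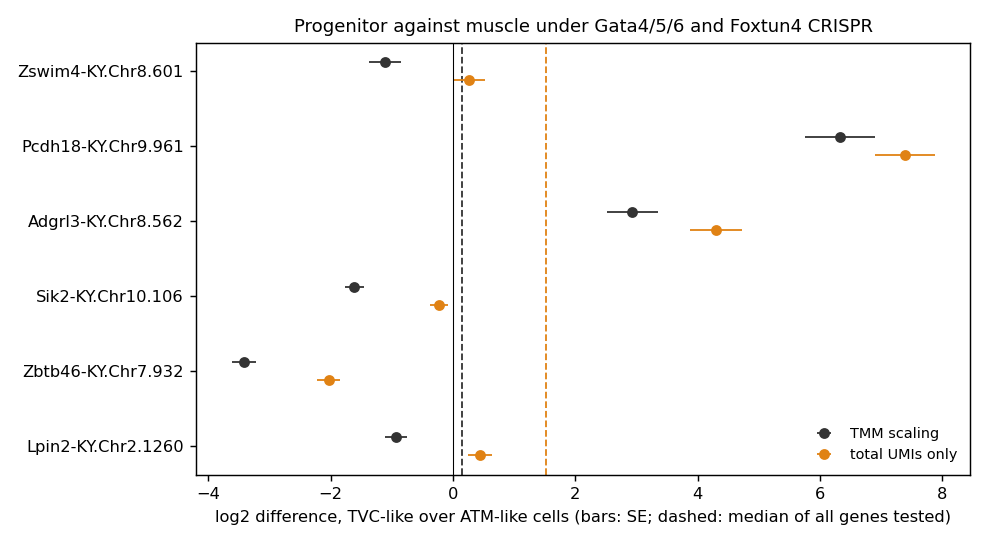
Fitted log2 difference between TVC-like and ATM-like cells (horizontal axis) for each of the 6 genes (vertical axis) under Gata4/5/6 and Foxtun4 CRISPR, with TMM scaling in black and total UMIs only in orange. Bars are standard errors and dashed lines the median of all 7266 genes tested, 0.15 and 1.53. Pcdh18-KY.Chr9.961 and Adgrl3-KY.Chr8.562 lie to the right and Zbtb46-KY.Chr7.932 to the left under both scalings, whereas Zswim4-KY.Chr8.601 and Lpin2-KY.Chr2.1260 change side.

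The time series gives the course of each transcript in embryos without CRISPR. It is 1 library without replicates, so levels have exact Poisson intervals for counting error and no test, and a direction is read only from sums of 20 cells or more, which left 6 to 13 hpf. Cells outside ATM-like clusters were summed per time point, which takes in founder-like cells, TVC-like cells, which were nearly all from 10 hpf on, cells of unnamed clusters and any sorted cells of other tissues: the epidermis marker Epi1-KY.Chr1.2380 was at 1499 CPM in the 8 hpf sum. The part of such cells in the levels at 8 hpf was not tested.

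Zswim4-KY.Chr8.601 was an early transcript. From 6 to 13 hpf it was at 93.5, 65.2, 182.7, 205.4, 70.1, 17.3, 5.1 and 3.5 CPM, highest at 8 and 9 hpf and close to absent at 12 and 13 hpf, with 8 and 4 UMIs. The level at 12 hpf was 0.0278 times that at 8 hpf (95% interval 0.0119 to 0.0556). Zbtb46-KY.Chr7.932 also declined, with 73.0, 66.5, 83.1, 90.7, 63.5, 29.8, 21.6 and 24.3 CPM from 6 to 13 hpf and a ratio of 0.260 between 12 and 8 hpf (0.173 to 0.382). Zswim4 was thus already lower at 10 hpf than at 9 hpf. Between 10 and 11 hpf both genes were lower again, with a ratio of 11 to 10 hpf of 0.247 for Zswim4 and 0.470 for Zbtb46, beside 6.02% of 6018 genes lower and 5.48% higher past 2-fold over that hour.

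Muscle markers were also lower in the later of these sums. The 10 ATM markers together were at 11073 CPM at 12 hpf, against 22967 CPM at 8 hpf, and 7 of the 10 were lower past 2-fold, with ratios of 12 to 8 hpf between 0.00926 and 1.43 over the list. Smyd1-KY.Chr6.594, a marker of muscle, was at 17.2 CPM at 12 hpf, against 1853 CPM at 8 hpf. The 10 hpf sum also held 81 cells of an unnamed cluster of 103 cells with 7 ATM and 5 TVC markers, in which Zbtb46-KY.Chr7.932 was at 97.9 CPM, beside 46.2 CPM in the TVC-like cluster of 173 cells. The part of muscle RNA and of these cells in the declines was not tested. Within TVC-like cells alone, Zbtb46-KY.Chr7.932 was at 45.8, 25.5, 17.1 and 19.1 CPM from 10 to 13 hpf, and Zswim4-KY.Chr8.601 at 64.9, 14.24, 2.7 and 2.0 CPM. In TVC-like cells the summed ATM markers were at 21169, 15747, 11184 and 14540 CPM at these times.

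Of the adhesion-type genes, Adgrl3-KY.Chr8.562 had a later maximum, whereas for Pcdh18-KY.Chr9.961 a maximum at 9 or at 10 hpf was not resolved. Pcdh18-KY.Chr9.961 was at 24.3, 15.8, 67.9, 96.2, 101.7, 42.9, 21.6 and 26.1 CPM from 6 to 13 hpf. It was low at 6 and 7 hpf, highest at 9 and 10 hpf with overlapping intervals, and at 12 hpf at 0.318 times its level at 8 hpf (0.210 to 0.472). Adgrl3-KY.Chr8.562 was at 9.0, 3.6, 5.1, 9.3, 22.6, 31.4, 17.2 and 9.6 CPM, with its highest values at 10 and 11 hpf, and the 12 and 8 hpf sums held 27 and 8 UMIs, too few for the call.

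The enzyme genes did not share the early pattern. Lpin2-KY.Chr2.1260 was at 34.6, 27.0, 31.1, 29.6, 46.0, 76.9, 69.9 and 61.7 CPM from 6 to 13 hpf, low until 9 hpf and highest from 11 hpf on, and its 12 hpf level was 2.25 times that at 8 hpf (1.59 to 3.22). Sik2-KY.Chr10.106 was at 37.1, 52.5, 38.7, 29.6, 43.9, 45.0, 26.7 and 22.6 CPM, a range with no clear peak, and its ratio of 12 to 8 hpf was 0.690 (0.454 to 1.04).

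Of the 6 genes, 3 were therefore lower past 2-fold at 12 than at 8 hpf and 1 was higher, beside 13.1% of the 4650 genes with at least 100 UMIs lower and 23.7% higher, with a median ratio of 1.18. The 8 hpf sum held 101 cells of unnamed clusters and 1 founder-like cell, and no TVC-like cell. At 12 hpf, 108 of the 113 cells were TVC-like, so these ratios also compare different classes of cells. In the same sums the Foxf transcript (Foxf1-KY.Chr3.1005) was at 11.52, 72.9, 286.8, 368.2, 464.6, 237.1, 91.5 and 56.5 CPM from 6 to 13 hpf. Pcdh18-KY.Chr9.961 was highest in the sum where Foxf was, although its interval there overlapped that of the hour before. Zswim4-KY.Chr8.601 reached its maximum before the Foxf maximum and Lpin2-KY.Chr2.1260 after it. With the cells of 1 library as the only source, the position of a peak has no replicate check.

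**Figure D4:**
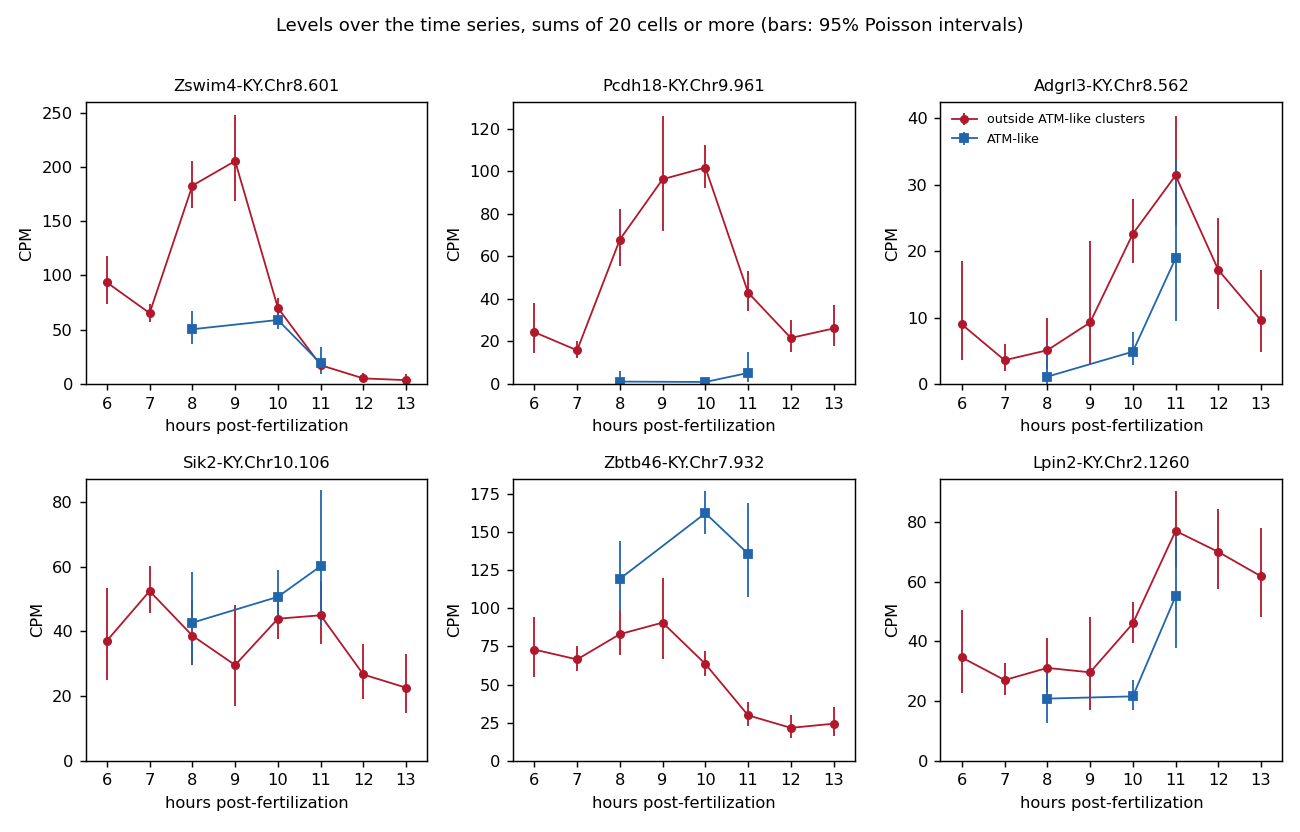
Level (vertical axis, CPM) of each of the 6 genes against hours post-fertilization (horizontal axis) in the time series, for cells outside ATM-like clusters (red circles) and in ATM-like clusters (blue squares), sums of 20 cells or more, with exact 95% Poisson intervals. Zswim4-KY.Chr8.601 is highest at 8 and 9 hpf and at 5.1 CPM by 12 hpf, Lpin2-KY.Chr2.1260 is highest from 11 hpf on, and the muscle values of Pcdh18-KY.Chr9.961 stay at or under 5.2 CPM.

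The time series also repeated the comparison of progenitor with muscle in cells that no CRISPR reagent had reached. Over all time points, with 502 TVC-like and 268 ATM-like cells, Pcdh18-KY.Chr9.961 was at 65.4 CPM in TVC-like cells, against 1.34 CPM in ATM-like cells, a ratio of 48.6 (24.4 to 113). Adgrl3-KY.Chr8.562 was at 22.9 CPM in TVC-like cells, against 5.55 CPM in ATM-like cells, a ratio of 4.13, and Zbtb46-KY.Chr7.932 at 29.6 CPM, against 147.9 CPM in ATM-like cells, a ratio of 0.200. These directions are the ones found at 12 hpf under CRISPR. The classes differed in stage, since 2 of the 502 TVC-like cells were from before 10 hpf, against 72 of the 268 ATM-like cells, so these ratios also compare stages.

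Lpin2, Zswim4 and Sik2, at ratios of 1.86, 0.550 and 0.704, did not pass 2-fold. The background was 58.7% of 6999 genes higher and 6.96% lower past 2-fold, with a median ratio of 2.33, which puts the ratios of these 3 genes and of Zbtb46 under the median gene. At 10 hpf alone, where both classes were of 1 stage and well filled with 174 and 152 cells, Zswim4-KY.Chr8.601 was at 64.9 CPM in TVC-like cells, against 58.9 CPM in ATM-like cells, a ratio of 1.10 (0.881 to 1.37). Zbtb46-KY.Chr7.932 was already at 45.8 CPM in TVC-like cells at 10 hpf, against 162.5 CPM in ATM-like cells, beside 7.28% of 4838 genes lower and 58.8% higher past 2-fold at that time.

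The level in control CRISPR progenitors at 12 hpf was not that of the 12 hpf cells of the time series. The control CRISPR values here are of TVC-like cells, whereas the time series values are of all cells outside ATM-like clusters. Zswim4-KY.Chr8.601 was at 116.9 and 60.1 CPM in control CRISPR TVC-like cells, against 5.1 CPM (2.2 to 10.0) at 12 hpf and 70.1 CPM at 10 hpf in the time series. Adgrl3-KY.Chr8.562 was at 83.0 and 97.2 CPM in control CRISPR, against 17.2 CPM at 12 hpf and 31.4 CPM at 11 hpf, its highest time point, in the time series. Pcdh18-KY.Chr9.961, Sik2-KY.Chr10.106 and Zbtb46-KY.Chr7.932 were likewise above their 12 hpf level of the time series in both control libraries, and Lpin2-KY.Chr2.1260, at 54.2 and 60.9 CPM against 69.9 CPM, was not. The Foxf transcript (Foxf1-KY.Chr3.1005) stood at 572.7 and 447.4 CPM in control CRISPR, against 91.5 CPM at 12 hpf and 464.6 CPM at 10 hpf in the time series. The experiments were run apart and share no condition, so the differences between them were not tested, and the conditions at 12 hpf are compared only within the CRISPR libraries.

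Likeness of course was measured by Pearson's r of log2(CPM + 10) over the 11 sums of the time series with 20 cells or more, 8 of cells outside ATM-like clusters and 3 of ATM-like cells. These sums share 1 library and neighbouring stages, so r is a description. The 6 genes were not alike by this measure: r ran from -0.77 between Lpin2-KY.Chr2.1260 and Zbtb46-KY.Chr7.932 to 0.86 between Lpin2-KY.Chr2.1260 and Adgrl3-KY.Chr8.562, and was -0.72 between Lpin2-KY.Chr2.1260 and Zswim4-KY.Chr8.601. Among 7036 genes, the most alike to Zswim4-KY.Chr8.601 was Tcf12-KY.Chr3.781 (r = 0.957), named after a class I bHLH factor. For Pcdh18-KY.Chr9.961 they were Ctnnal1-KY.Chr9.707 (0.961), named after an alpha-catenin-like protein, and H3c2-KY.UAContig44.13 (0.952), named after a histone H3. For Adgrl3-KY.Chr8.562 they were Csnk1g2-KY.Chr4.79 (0.945) and Ampd3-KY.Chr4.1128 (0.912), named after a casein kinase 1 and an AMP deaminase.

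For Sik2-KY.Chr10.106 the most alike were Dyrk1b-KY.Chr10.1113 (0.921), named after a dual-specificity kinase, and KY.Chr13.46 (0.916), which has no symbol in the files. For Zbtb46-KY.Chr7.932 they were Slc35g1-KY.Chr5.966 (0.986) and Fzr1-KY.Chr8.203 (0.982), the second named after an activator of the anaphase-promoting complex. For Lpin2-KY.Chr2.1260 they were Dhx29-KY.Chr2.1289 (0.962) and Marchf5-KY.Chr8.382 (0.935), named after an RNA helicase of translation initiation and a mitochondrial ubiquitin ligase. None of the genes named here as most alike is another gene of the 6.

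The symbols Pcdh18 and Adgrl3 are each carried by more than 1 gene model, and the models had different values. In Foxf CRISPR against control TVC-like cells, Pcdh18-KY.Chr9.393 had a log2 difference of -1.44 ± 0.20, against 2.133 ± 0.23 for Pcdh18-KY.Chr9.961, and Adgrl3-KY.Chr5.854 and Adgrl3-KY.Chr3.1562 had -0.68 ± 0.18 and -1.32 ± 0.44, against 1.99 ± 0.25 for Adgrl3-KY.Chr8.562. Pcdh18-KY.Chr9.720 had 0.93 ± 0.61 and Adgrl3-KY.Chr14.636 had -3.30 ± 1.28. Of these 5 other models Pcdh18-KY.Chr9.393 alone passed the call, as lower. In the time series Pcdh18-KY.Chr9.393 was 20.3 times higher at 12 than at 8 hpf, whereas Pcdh18-KY.Chr9.961 was at 0.318 times and Pcdh18-KY.Chr9.720 at 0.186 times. The models Pcdh18-KY.Chr9.393 and Pcdh18-KY.Chr9.961 were both higher in TVC-like than in ATM-like cells, at ratios of 80.7 and 48.6 in the time series, whereas Pcdh18-KY.Chr9.720 was lower, at a ratio of 0.0819. Whether any reads were shared between models of 1 symbol is not given in the sources used here.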

How the data were processed

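The deposited matrices hold whole-number UMI counts per gene and cell, which the authors made with Cell Ranger 3.0.1 (per the submitters' processing notes) on KY2019 gene models plus 21 barcode features. They were used as deposited, without the barcode features. Assignment of a cell to a condition or time required UMIs of each barcode of the designed pair and at least 75% of the cell's mapped barcode UMIs in that pair. Cells outside the 1 and 99 percentiles of genes per cell in the time series were left out, which kept 2517 cells, and no doublet caller was run. Cells were clustered with scanpy 1.11.5 (2000 variable genes without the 6 genes, 30 components, 15 neighbours, Leiden with igraph 0.11.9, resolution 1). A cluster was named from at least 3 of the 10 markers of a class, so classes may differ from those of the study.

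UMI counts were summed per library, condition and class and tested with edgeR 4.0.16 in R 4.3.3 (filterByExpr, TMM, quasi-likelihood, Benjamini-Hochberg over all genes tested), all conditions sharing 1 estimate of the spread. The SE was taken as the absolute log2 difference over √F. The replicates are the 2 CRISPR libraries. The study describes 1 library pooled from its 4 barcoded CRISPR samples, so both may come from the same pool of cells. Nothing says here that they came from separate spawnings, so p-values and SEs measure only the spread between these libraries. Median depth was 19847 and 21552 UMIs per cell in CRISPR libraries 1 and 2 and 14049 in the time series. Poisson and binomial intervals cover counting error only. The script was tested on simulated counts. Alternatives were DESeq2 1.42.0, total UMIs only, no filter on low counts, a replicate block, leaving out each library, resolution 2 and stricter or looser barcode rules. The 6 genes and all lists were chosen with earlier results of these data known. All 6 genes are named in every comparison, with the 2 most alike genes each (at least 200 UMIs over the sums; 1 of these is not reported here), the targeted genes, genes downstream of Foxf, class markers and genes of the same symbol. The pairs of barcodes were read from the study's colour keys, in which FoxG was taken as Foxtun4 CRISPR and Tyr as control.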

Additional observations from a re-analysis of the deposited data

Results flagged for a closer look

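For Sik2-KY.Chr10.106 and Lpin2-KY.Chr2.1260 the library ratios of Foxf CRISPR to control had opposite signs in the 2 cell classes, in both libraries. The mean log2 CPM ratio of Foxf CRISPR to control for Sik2-KY.Chr10.106 was 1.18 in TVC-like cells and -0.11 in ATM-like cells, where the libraries were at -0.18 and -0.03 and the pooled ratio of 0.955 had a 95% interval of 0.823 to 1.11, which holds 1. For Lpin2-KY.Chr2.1260 it was 1.03 in TVC-like cells and -0.63 in ATM-like cells. The difference between the classes was not tested: the genes were chosen for the TVC-like contrast, and neither passed the call in ATM-like cells, where the library 1 sum of Foxf CRISPR held 10 cells.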

How the results depend on the processing

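The median log2 difference of the 6 genes between Foxf CRISPR and control TVC-like cells was 1.81, lay between 1.36 (without replicate 2) and 1.92 (without replicate 1) when a library was left out, and was 1.07 from pooled CPM without the cluster of Foxf CRISPR cells only, an alternative chosen after seeing the data. The comparison of TVC-like with ATM-like cells under Gata4/5/6 and Foxtun4 CRISPR called 3 of the 6 genes with total UMIs only, in place of 6. That scaling turned Zswim4-KY.Chr8.601 to 0.27 and Lpin2-KY.Chr2.1260 to 0.45 there, to 0.49 and 0.13 in control cells, and Zbtb46-KY.Chr7.932 to 0.0050 in Foxf CRISPR against control ATM-like cells. Resolution 2 turned Zswim4 to -0.19 and Sik2-KY.Chr10.106 to -0.055 under Gata4/5/6 CRISPR and Lpin2 to -0.029 under Foxtun4 CRISPR, and Lpin2 there was also -0.0066 without a filter on low counts; all of these were uncalled. With 1 barcode of the pair enough, the summed level of the 6 genes at 12 hpf in the time series was 198 CPM, in place of 162 CPM.

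The libraries share a number across conditions, but deviations from the condition means correlated at only -0.08 to 0.13 over 12 pairs of conditions. With the library as a replicate block, the median of the 6 genes was 1.81, and 47 genes were higher and 139 lower under Foxf CRISPR in TVC-like cells. With this block 0 of the 6 genes were called under Gata4/5/6 or Foxtun4 CRISPR, and none of those that could be tested in ATM-like cells. Lpin2-KY.Chr2.1260 under Foxtun4 CRISPR became -3.99e-05 with it. DESeq2 called 26 genes higher and 72 lower in the Foxf CRISPR contrast, in place of 51 and 138. Depth limits Pcdh18-KY.Chr9.961 and Adgrl3-KY.Chr8.562 in muscle cells, Adgrl3 before 10 hpf and every value of the library 1 Foxtun4 CRISPR sum of 6 TVC-like cells.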

Other observations

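Cells of the time series without an assigned barcode pair also held these transcripts, in clusters that no marker list names. Adgrl3-KY.Chr8.562 was at 306 CPM (95% Poisson interval 258 to 361) in a cluster of 37 cells, of which 2.70% were assigned to a time point, against 32.5 CPM in the highest cluster with over 90% of its cells assigned, a TVC-like cluster of 144 cells. Lpin2-KY.Chr2.1260 was highest in the same 37 cells, at 219 CPM (178 to 266). Pcdh18-KY.Chr9.961 was at 238 CPM (207 to 272) in an unnamed cluster of 97 cells with 9.28% assigned, and at 131 CPM in its highest TVC-like cluster. Zswim4-KY.Chr8.601 was at 183 CPM in an unnamed cluster of 123 cells with 10.6% assigned. It was higher, at 280 CPM, in an unnamed cluster of 92 cells, 97.8% of them assigned and most of them from 8 and 9 hpf. The Foxf transcript was among the genes that stood highest in that cluster over the other clusters. What tissue the cells of the mostly unassigned clusters came from was not tested.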
